A study of Mus musculus with 11 samples.

Results

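The genes described here are 10 imprinted regulators of growth, H19, Meg3, Dlk1, Peg3, Plagl1, Mest, Grb10, Igf2r, Cdkn1c and Ndn, and they were taken by symbol from a fixed list and matched through Entrez identifiers to the count matrix. All 10 were found among its 27179 genes and all 10 passed the filter on low counts that left 17370 genes for testing, so no member was lost. They were measured by bulk RNA-seq in 4 groups of sorted mammary epithelial cells from E-cadherin-GFP mice on a C57BL/6 background at 5 weeks of age, an age in puberty when the ducts elongate. Terminal end buds (TEBs), the growing tips, and the ducts behind them were separated by microdissection under GFP fluorescence, and cells negative for Ter119, CD31 and CD45 and positive for CD24 and CD29 were sorted by GFP into bright (luminal) and dim (basal) fractions. This gave 3 libraries of basal duct, 3 of basal TEB, 2 of luminal duct and 3 of luminal TEB. Every mouse carried the reporter, each replicate is a pool of cells from 2 or more mice, and the luminal duct libraries are replicates 1 and 3 because the authors discarded one for low cell numbers. TEB against duct asks what differs between growing and laid-down epithelium, and basal against luminal asks in which cell layer a gene is expressed.

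Imprinted genes are expressed mainly or only from the copy inherited from one parent, because DNA methylation laid down in the egg or sperm marks the copies by parent. Paternally expressed genes of this kind tend to promote growth and maternally expressed genes to restrain it, although there are exceptions to this pattern. Of the members, Dlk1, Peg3, Plagl1, Mest and Ndn are paternally expressed, and H19, Meg3, Grb10, Igf2r and Cdkn1c are maternally expressed in most tissues. They include transmembrane and receptor proteins (Dlk1, a Notch-related ligand, and Igf2r, the receptor that clears IGF2), a signalling adaptor (Grb10), a cyclin-dependent kinase inhibitor (Cdkn1c, p57), zinc finger factors (Peg3, Plagl1), a hydrolase-fold protein (Mest), a MAGE family protein (Ndn, necdin) and 2 long non-coding RNAs (H19, Meg3). The counts do not separate maternal from paternal transcripts, so each value below is the sum of both alleles.

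Of the 10 genes, 3 carry microRNAs within their span, and the mature sequences are shown because the host transcript is what the libraries measured. They are taken from RefSeq (GRCm38.p6) and written 5' to 3' with the seed, bases 2 to 8, in capitals. H19 hosts miR-675, Meg3 hosts miR-770 and miR-1906, and Mest hosts miR-335.
miR-675-5p (H19): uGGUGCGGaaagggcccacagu
miR-675-3p (H19): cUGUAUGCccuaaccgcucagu
miR-770-5p (Meg3): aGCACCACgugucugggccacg
miR-770-3p (Meg3): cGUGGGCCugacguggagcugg
miR-1906 (Meg3): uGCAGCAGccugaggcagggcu
miR-335-5p (Mest): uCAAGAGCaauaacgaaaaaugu
miR-335-3p (Mest): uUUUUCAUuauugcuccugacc
No seed was shared between any pair of these sequences. The microRNA genes themselves had 0 counts over all 11 libraries for miR-675, miR-770 and miR-1906 and 5 counts for miR-335, and libraries of long RNA do not measure mature microRNAs, so a host's level below is not a level of its microRNA.

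Upstream sequence is shown for 4 of the 5 members that were higher in basal cells in both ducts and TEBs (below), Peg3, Ndn, Meg3 and Mest. Each run is the 250 bases before an annotated start in RefSeq (GRCm38.p6), 5' to 3' on the gene's strand, with CpG dinucleotides, the sites of DNA methylation, in capitals. Promoter entries were found for 8 of the 10 members. For Meg3 the first of 2 annotated starts is given, and for Mest the first and second of 3.
Peg3 (chr7:6730420-6730669, minus strand): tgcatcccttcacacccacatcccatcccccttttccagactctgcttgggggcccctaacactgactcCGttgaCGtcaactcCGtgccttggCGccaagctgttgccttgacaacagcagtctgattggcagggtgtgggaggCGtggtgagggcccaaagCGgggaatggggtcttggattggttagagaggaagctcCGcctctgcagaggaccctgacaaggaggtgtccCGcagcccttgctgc
Ndn (chr7:62348027-62348276, plus strand): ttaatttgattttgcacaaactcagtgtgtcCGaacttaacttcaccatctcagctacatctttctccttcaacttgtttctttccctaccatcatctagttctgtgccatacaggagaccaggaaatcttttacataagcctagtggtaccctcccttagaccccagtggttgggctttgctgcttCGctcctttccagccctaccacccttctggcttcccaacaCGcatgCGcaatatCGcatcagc
Meg3 (chr12:109540746-109540995, plus strand): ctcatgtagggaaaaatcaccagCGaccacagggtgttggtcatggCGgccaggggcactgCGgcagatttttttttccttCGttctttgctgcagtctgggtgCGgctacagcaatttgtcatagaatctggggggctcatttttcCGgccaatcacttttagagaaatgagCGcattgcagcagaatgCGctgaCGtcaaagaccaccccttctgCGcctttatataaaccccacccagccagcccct
Mest, first start (chr6:30733256-30733505, plus strand): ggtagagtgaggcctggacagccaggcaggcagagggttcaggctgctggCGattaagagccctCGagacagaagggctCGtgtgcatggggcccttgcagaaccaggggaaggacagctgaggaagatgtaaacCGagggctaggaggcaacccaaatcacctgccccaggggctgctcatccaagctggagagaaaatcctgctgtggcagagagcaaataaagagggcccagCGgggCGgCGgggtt
Mest, second start (chr6:30737800-30738049, plus strand): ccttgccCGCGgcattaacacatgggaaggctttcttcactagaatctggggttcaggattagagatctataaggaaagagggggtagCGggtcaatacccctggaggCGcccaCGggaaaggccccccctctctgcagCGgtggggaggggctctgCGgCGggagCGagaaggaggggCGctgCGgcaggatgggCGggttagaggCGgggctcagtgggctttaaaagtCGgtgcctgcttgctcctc
The number of CpG sites was 8 for Peg3, 5 for Ndn, 10 and 0 for the first and second starts of Meg3, and 7 and 14 for the first and second starts of Mest, against a median of 6 over 32851 promoter windows of the same length. Windows of the members that were not higher in basal cells held 40 and 8 sites for Grb10, 27 for Igf2r, 19 for Plagl1 and 8 for Dlk1. The hexamer TGCCGC, the core bound by Zfp57 when methylated, was searched on both strands and found in 8.68% of all windows, and among the windows printed it occurred once for Meg3 and 2 times for the second start of Mest. GGGGCCCC, a core recognised by Plagl1, was in 0.889% of all windows and occurred once for Peg3. A match describes the letters only, and methylation was not measured in these libraries.

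Libraries held from 27989137 to 49221436 read-pair counts. Levels are CPM, the counts of a gene relative to its library total on the usual per-megaread scale, with totals scaled by the trimmed mean of M-values (TMM), or RPKM, the same value per kilobase of counted exon, where genes are compared with each other. Differences between groups were tested with the quasi-likelihood method of edgeR, and a gene was called at a Benjamini-Hochberg adjusted p (FDR) below 0.05 over all 17370 genes. The labels of the cells were borne out by their markers, since the summed CPM of 6 basal markers (Krt5, Krt14, Trp63, Acta2, Myh11, Oxtr) was 4952 to 17582 in basal libraries and 11.9 to 217 in luminal ones, and that of 6 luminal markers (Krt8, Krt18, Krt19, Elf5, Esr1, Prlr) was 11728 to 18240 in luminal libraries and 242 to 522 in basal ones. Mitochondrial genes took 37.5% of counts in basal TEB replicate 1 and 28.5% in luminal duct replicate 3, against 4.34% to 17.8% elsewhere. The luminal duct libraries also differed in markers of other cells, with a summed CPM of 6.03 in replicate 1 and 250 in replicate 3 for 6 fibroblast markers, 1.55 and 60.7 for 6 immune markers, and 1.02 and 24.9 for 4 endothelial markers. Of 4 adipocyte markers, Fabp4 alone was detected in luminal duct replicate 3, at 75.1 CPM, and none in replicate 1. With 2 libraries in that group and a common biological coefficient of variation of 0.704, each comparison with luminal duct is given with its per-library values.

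**Figure D1:**
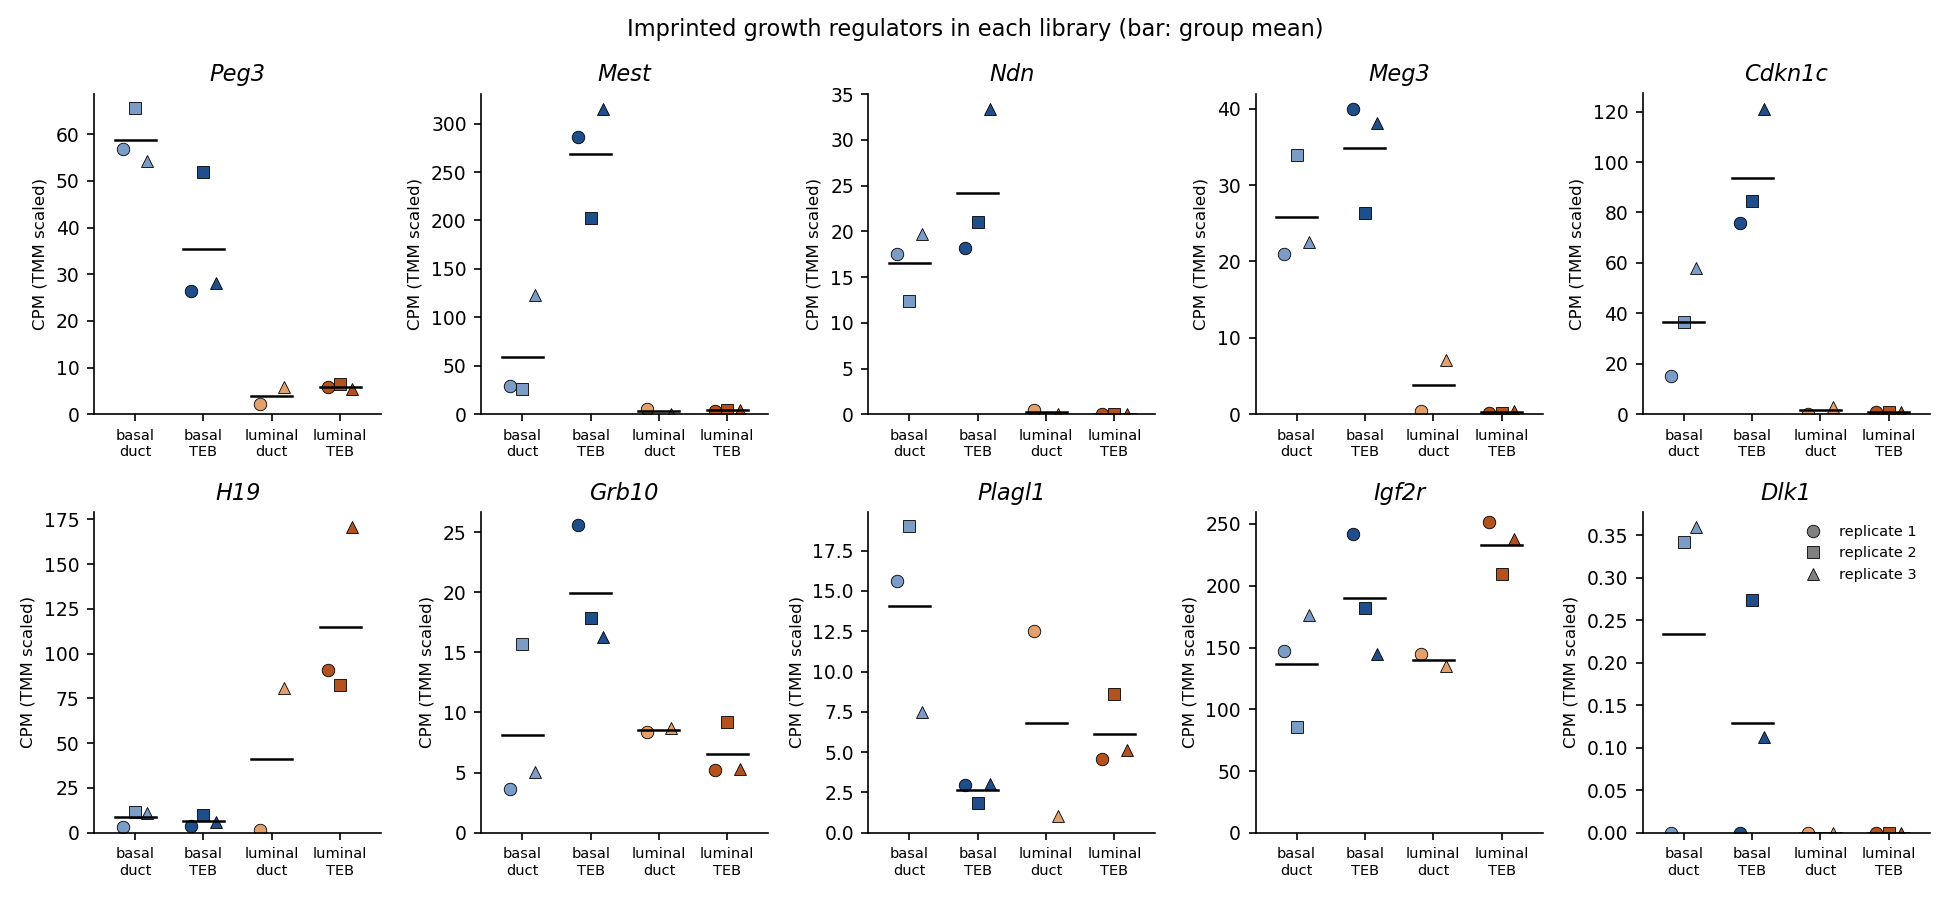
CPM after TMM scaling (vertical axis, linear from 0, a separate scale for each gene) of the 10 members in the 11 libraries, by group; the symbol gives the replicate and the bar the group mean. Peg3, Mest, Ndn, Meg3 and Cdkn1c are high in all 6 basal libraries and low in all 5 luminal ones, H19 is high in 4 of the 5 luminal libraries and at 1.59 CPM in luminal duct replicate 1, and Igf2r is above 85 CPM in every library.

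The main feature of the family in these cells was a difference between the layers, with 5 members higher in basal than in luminal cells both in ducts and in TEBs (Peg3, Mest, Ndn, Meg3 and Cdkn1c), and H19 lower in basal cells of TEBs. In ducts 5 of 10 members were called higher in basal cells and 0 higher in luminal cells, beside 12.6% and 9.71% of all genes tested. In TEBs 5 of 10 were called higher in basal cells and 1 higher in luminal cells, beside 13.2% and 11.8% of all genes. The median log2 fold change of the 10 members was 3.34 in ducts and 4.02 in TEBs, beside 0.08 and 0.04 over all genes tested. The members were chosen with earlier results of these data known, so their excess over all genes is a description only. The ducts and the TEBs are separate libraries, and the same 5 members were called in both. Both tests come from 1 model with a shared estimate of the spread, so they are not independent. In an edgeR fit of the duct groups alone, Meg3 (FDR 0.112) and Cdkn1c (FDR 0.0513) were not called. By allele, 3 of the 5 paternally expressed members (Peg3, Mest, Ndn) and 2 of the 5 maternally expressed ones (Meg3, Cdkn1c) were higher in basal cells in each place.

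Peg3 (Entrez 18616, chromosome 7, 6703892 to 6730462 in mm10), a paternally expressed zinc finger gene, had 56.7, 65.5 and 54.2 CPM in basal duct replicates 1, 2 and 3 and 26.4, 52.0 and 28.1 CPM in basal TEB. Its level was 2.09 and 5.88 CPM in luminal duct replicates 1 and 3 and 5.78, 6.48 and 5.51 CPM in luminal TEB. The lowest basal library was thus well above the highest luminal one, and the groups did not overlap. The log2 fold change of basal against luminal cells was 3.90 (SE 0.49, FDR 0.00013) in ducts and 2.58 (SE 0.39, FDR 0.000366) in TEBs by edgeR's quasi-likelihood test, and both calls held under all 22 alternative settings. Peg3 had the smallest spread of the members within basal duct relative to its mean, with a mean of 58.8 ± 5.94 CPM (SD, n = 3).

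Mest (Entrez 17294, chromosome 6, 30733506 to 30748466), the mesoderm-specific transcript that marks growing fat and mesenchyme, reached the highest level per length of any member in any library, 114 RPKM in basal TEB. In CPM it had 29.7, 25.6 and 124 CPM in basal duct and 287, 203 and 315 CPM in basal TEB, against 5.26 and 0.658 CPM in luminal duct and 3.16, 3.96 and 4.57 CPM in luminal TEB. Basal duct replicate 3 stood apart from the other 2 duct libraries, yet no basal library came near a luminal one. Between layers, the log2 fold change was 4.28 (SE 0.87, FDR 0.00363) in ducts and 6.10 (SE 0.78, FDR 0.000112) in TEBs. The call in ducts was lost with limma voom (FDR 0.117) and held under the other 21 alternatives. Mest overlaps Copg2 on the other strand by 913 bases, and the library kit does not mark strand, so reads in that stretch could not be assigned by strand.

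Ndn (Entrez 17984, chromosome 7, 62348277 to 62349928), which encodes necdin, a growth suppressor first known from neurons, had the largest fitted fold change between layers of the members with counts in both. Its level was 17.5, 12.4 and 19.7 CPM in basal duct and 18.2, 21.0 and 33.4 CPM in basal TEB. In luminal cells it was close to undetected, with 0.501 and 0 CPM in luminal duct and 0, 0 and 0.0771 CPM in luminal TEB, which amounts to 22 and 4 counts over each group. Between layers it had a log2 fold change of 5.92 (SE 1.24, FDR 0.00458) in ducts and 9.68 (SE 1.27, FDR 0.00013) in TEBs, called under all 22 alternatives in each, although at so few luminal counts the size of the fold depends on the smoothing of low counts. Of its neighbours in the same imprinted domain, Magel2 had 0 counts in every library.

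Meg3 (Entrez 17263, chromosome 12, 109540996 to 109571729), a maternally expressed long non-coding RNA with growth-suppressing activity, had 21.0, 33.9 and 22.5 CPM in basal duct and 40.0, 26.3 and 38.2 CPM in basal TEB. Its luminal levels were 0.478 and 7.11 CPM in luminal duct and 0.179, 0.171 and 0.405 CPM in luminal TEB. The luminal duct replicate with 7.11 CPM, replicate 3, is the one with higher fibroblast, immune and endothelial markers. Its sum of the 6 basal markers was also higher, at 217 CPM against 81.8 in replicate 1, although Trp63 was lower (0.206 against 3.44 CPM). The part of any of these cells in its Meg3 level was not tested. The log2 fold change between layers was 7.09 (SE 0.90, FDR 0.0001) in TEBs, called under all 22 alternatives. In ducts it was 2.78 (SE 0.85, FDR 0.035), and the call was lost in a fit of the duct groups alone (FDR 0.112) and, at FDR 0.0503 to 0.0794, when any of the 3 basal duct replicates or basal TEB replicate 2 or 3 was left out. Without luminal duct replicate 3 the log2 fold change in ducts was 5.75 (FDR 0.000275).

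Cdkn1c (Entrez 12577, chromosome 7, 143458339 to 143461059), the maternally expressed inhibitor p57 that holds cells out of the cell cycle, had 15.3, 36.4 and 58.2 CPM in basal duct and 75.8, 84.5 and 121 CPM in basal TEB. It had 0.114 and 3.00 CPM in luminal duct and 0.807, 0.705 and 0.771 CPM in luminal TEB. All basal libraries lay above all luminal ones. For Cdkn1c, the log2 fold change was 4.63 (SE 0.97, FDR 0.0046) in ducts and 6.94 (SE 0.90, FDR 0.000118) in TEBs. In a fit of the duct groups alone the FDR in ducts was 0.0513, and the other 21 alternatives kept the call.

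The sum of the fibroblast markers was higher in basal than in luminal libraries within ducts and within TEBs. As background, fibroblasts express several of these genes. The summed CPM of the 6 markers (Col1a1, Col1a2, Col3a1, Dcn, Lum, Pdgfra) was 430, 840 and 491 in basal duct and 227, 406 and 226 in basal TEB. It was 6.03 and 250 in luminal duct replicates 1 and 3, and 11.7, 53.1 and 48.7 in luminal TEB. Dcn alone had 113 to 399 CPM in basal libraries and 0.986 to 24.6 CPM in luminal ones. Other single markers overlapped between layers. Col1a1 had 6.68 CPM in basal duct replicate 1 against 4.01 to 10.3 in luminal TEB. Pdgfra had 0.0577 CPM in basal TEB replicate 1 against 0.516 to 3.24 in luminal TEB. Lum was at 0 in basal duct replicate 1 and basal TEB replicate 1, and at 6.46 CPM in luminal duct replicate 3. The part of stromal cells in the basal levels was not tested. In bulk RNA, fewer cells of a type and less RNA per cell cannot be told apart.

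**Figure D2:**
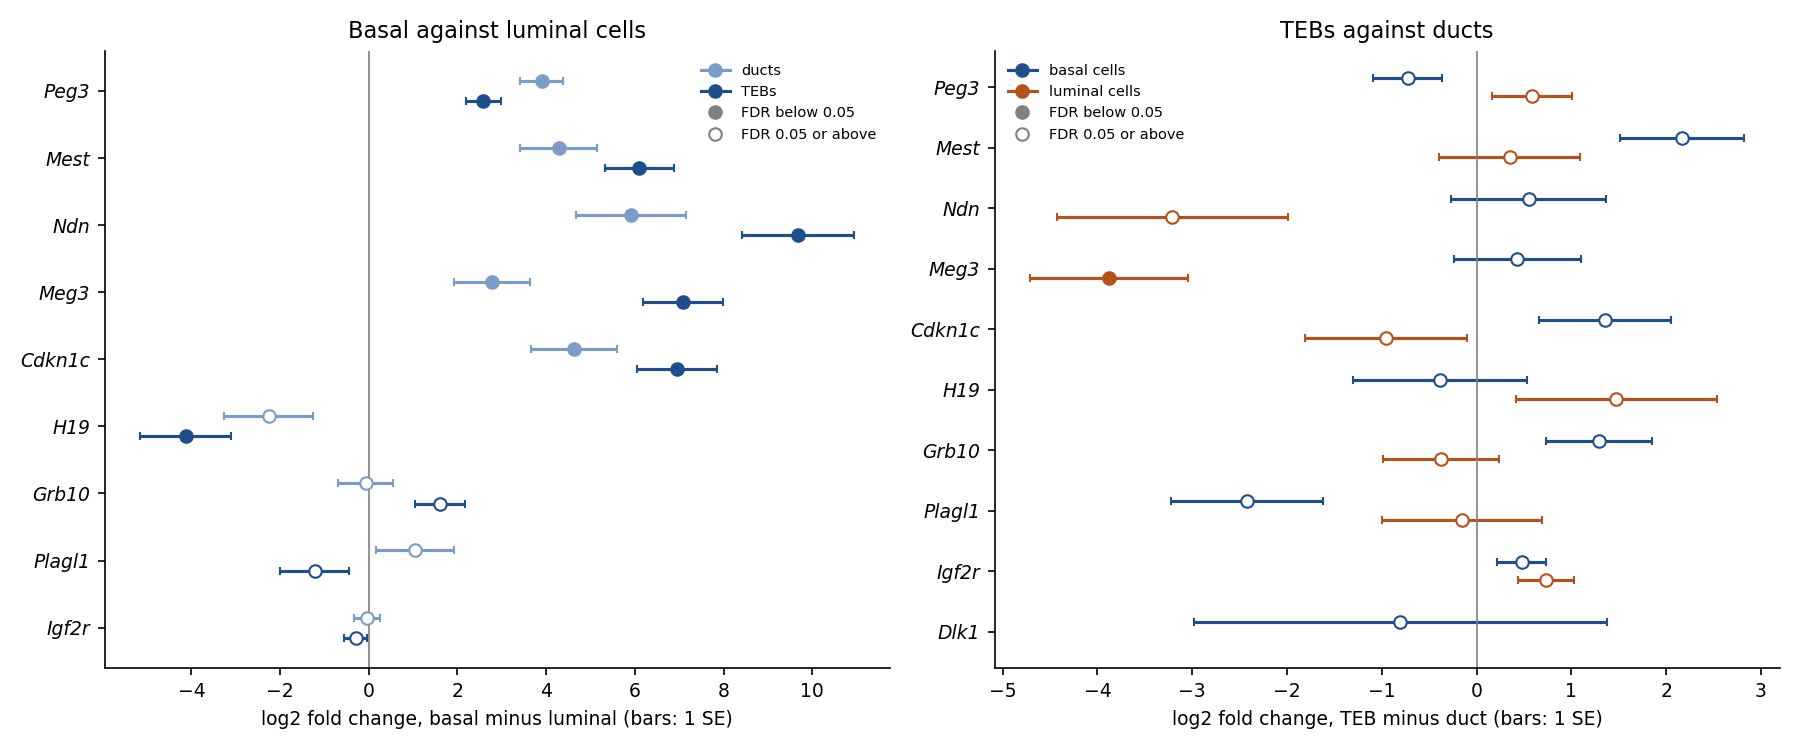
Fitted log2 fold change of each member (horizontal axis), basal minus luminal at left and TEB minus duct at right; bars are 1 SE, and filled points have an FDR below 0.05. At left 5 members lie to the right of 0 in both ducts and TEBs and H19 to the left in TEBs, with Dlk1 left out because luminal cells had 0 counts; at right Meg3 in luminal cells, at -3.88, is the one filled point.

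H19 (Entrez 14955, chromosome 7, 142575530 to 142578146), a maternally expressed long non-coding RNA abundant in the embryo and in growing tissue, had the opposite distribution. It had 3.35, 11.7 and 10.8 CPM in basal duct and 3.64, 9.96 and 5.94 CPM in basal TEB, but 90.7, 82.6 and 171 CPM in luminal TEB. Every luminal TEB library was above every basal library. The log2 fold change of basal against luminal cells in TEBs was -4.12 (SE 1.02, FDR 0.0108), and the call held under all 22 alternatives. The luminal duct libraries differed from each other by 50.9-fold, at 1.59 CPM in replicate 1 and 81.1 CPM in replicate 3. In ducts the log2 fold change was -2.26 (SE 1.01, FDR 0.133), it was 2.43 without luminal duct replicate 3 (FDR 0.0677, or 0.0469 with basal TEB replicate 1 left out as well) and -3.23 without replicate 1 (FDR 0.00356), and no direction can be given. Replicate 3 is the library with 28.5% mitochondrial counts and the higher stromal and immune markers. Its immune sum of 60.7 CPM was above that of every basal library (3.41 to 32.4 CPM). The same held for 3 erythroid markers (12.95 against 0.0577 to 5.68 CPM) and 3 Schwann cell markers (20.7 CPM, from 1 of the 3, against 0 to 18.3 CPM). Its fibroblast sum of 250 CPM was below the 430 to 840 CPM of basal duct and within the 226 to 406 CPM of basal TEB. The part of these cells in its H19 level was not tested.

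Igf2r (Entrez 16004, chromosome 17, 12682406 to 12769706), the maternally expressed receptor that takes up IGF2 for degradation in lysosomes, was the most evenly expressed member. It ranged from 85.6 CPM in basal duct replicate 2 to 251 CPM in luminal TEB replicate 1. Group means were 136 ± 46.2 CPM (SD, n = 3) in basal duct, 190 ± 49.2 (n = 3) in basal TEB, 140 ± 6.85 (n = 2) in luminal duct and 233 ± 21.3 (n = 3) in luminal TEB. The layers overlapped in both places and the test did not separate them, with a log2 fold change of -0.04 (SE 0.29, FDR 0.945) in ducts and -0.30 (SE 0.26, FDR 0.444) in TEBs, which does not show that they were equal. Its antisense partner Airn overlaps it by 28396 bases, but held 2129 counts over all libraries, and at most 340 in one.

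Grb10 (Entrez 14783, chromosome 11, 11930499 to 12037428), an adaptor that dampens insulin and IGF1 receptor signalling, had 3.63, 15.7 and 5.03 CPM in basal duct and 25.6, 17.9 and 16.3 CPM in basal TEB. It had 8.38 and 8.72 CPM in luminal duct and 5.20, 9.22 and 5.30 CPM in luminal TEB. In TEBs all basal libraries were above all luminal ones, with a log2 fold change of 1.60 (SE 0.56) and an FDR of 0.0582 that missed the threshold. It fell below the threshold under 8 of 22 alternatives (lowest FDR 0.0125, in a fit of the TEB groups alone), among them the omission of basal duct replicate 1 (FDR 0.0402) or replicate 2 (FDR 0.0191). In ducts the log2 fold change was -0.07 (SE 0.62, FDR 0.955), with basal duct replicate 2 above both luminal libraries and the other 2 below them.

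Plagl1 (Entrez 22634, chromosome 10, 13090832 to 13131694), a paternally expressed zinc finger factor that arrests the cell cycle and acts on other imprinted genes, had 15.6, 19 and 7.52 CPM in basal duct and 2.94, 1.87 and 3.05 CPM in basal TEB. It had 12.5 and 1.07 CPM in luminal duct and 4.60, 8.61 and 5.14 CPM in luminal TEB. The order of the layers differed between the places, with a log2 fold change of 1.05 (SE 0.87, FDR 0.422) in ducts and -1.22 (SE 0.77, FDR 0.282) in TEBs, neither past the threshold. Without luminal duct replicate 1, whose 12.5 CPM lies within the basal duct range, the log2 fold change in ducts was 3.71 (FDR 0.0187).

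Dlk1 (Entrez 13386, chromosome 12, 109452485 to 109463336), a paternally expressed transmembrane protein that keeps precursor cells undifferentiated, was barely detected. It had 27 counts over basal duct (0, 0.342 and 0.359 CPM by replicate), 17 over basal TEB (0, 0.274 and 0.112 CPM) and 0 in all 5 luminal libraries. Taking 3 counts over the group as the limit that a count of 0 allows, basal cells were at least 4.83-fold higher in ducts and at least 8.40-fold higher in TEBs, a limit that covers counting error only. Neither difference passed edgeR's quasi-likelihood test (FDR 0.218 and 0.149), and 1 library of each basal group had no count.

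Per length, Mest was the highest member in basal TEB, with a mean of 96.6 ± 21.0 RPKM (SD, n = 3), followed by Cdkn1c at 48.3 ± 12.4, Igf2r at 21.2 ± 5.51 and Ndn at 14.7 ± 4.90. The ranges of Mest and Cdkn1c did not overlap, and those of Igf2r and Ndn did. In basal duct Mest (21.5 ± 20.0), Cdkn1c (18.9 ± 11.02), Igf2r (15.3 ± 5.17) and Ndn (10.01 ± 2.29) overlapped with each other in RPKM. In luminal TEB H19 led at 43.8 ± 18.6 RPKM (n = 3), above Igf2r at 26.1 ± 2.39, and the next member was Mest at 1.40 ± 0.254. Luminal TEB cells thus held 2 members at more than 2 RPKM.

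From ducts to TEBs, 0 of 10 members was called in basal cells by edgeR's quasi-likelihood test, beside 0.167% of all genes called higher in basal TEB and 1.16% higher in basal duct. At an unadjusted p under 0.05 there were 3 (Mest, Plagl1, Grb10), beside 2511 of the 17370 genes tested. Other tools called 1 (likelihood ratio test, Mest), 2 (DESeq2, Mest and Plagl1) and 2 (limma voom, Mest and Cdkn1c). In CPM the 3 duct and 3 TEB libraries did not overlap for 5 of the 10 members, with Mest, Grb10 and Cdkn1c higher in TEB and Peg3 and Plagl1 lower, beside 20.8% of all genes not overlapping. The median log2 fold change of the 10 was 0.45, beside -0.03 over all genes.

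Mest had the largest positive log2 fold change of the members, with a mean of 59.6 ± 55.4 CPM in basal duct and 268 ± 58.4 in basal TEB (SD, n = 3), and a log2 fold change of 2.17 (SE 0.65, FDR 0.155). It was 3.28 (FDR 0.0296) without basal duct replicate 3, the library at 124 CPM. Cdkn1c stood at 36.6 ± 21.4 CPM in basal duct and 93.8 ± 24.1 in basal TEB, a log2 fold change of 1.36 (SE 0.69, FDR 0.397). Both of these values lie in a fraction with more cell cycle transcripts in TEB, the summed CPM of 11 proliferation genes being 994, 430 and 979 in basal duct and 1163, 1483 and 1721 in basal TEB. The sum was also higher in luminal TEB (1277 to 1482) than in luminal duct (553 and 599). There neither Mest (log2 fold change 0.35) nor Cdkn1c (-0.96) was called. Any link of Mest or Cdkn1c to the cell cycle transcripts was not tested. Among those 11 genes Birc5 alone was called in basal cells (log2 fold change 1.48, FDR 0.0415), a gene named here after its value was seen.

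Plagl1 had the largest negative value in basal cells, with 14.1 ± 5.90 CPM in duct and 2.62 ± 0.651 in TEB (SD, n = 3) and a log2 fold change of -2.42 (SE 0.80, FDR 0.198). The FDR was 0.0436 without luminal duct replicate 3, a library outside the contrast that enters through the shared estimate of the spread. Peg3 had a log2 fold change of -0.73 (SE 0.37, FDR 0.389), and basal TEB replicate 2, at 52.0 CPM, lay close to the lowest duct library at 54.2. Grb10 had 1.29 (SE 0.56, FDR 0.32), and its gap rested on basal duct replicate 2 at 15.7 CPM against 16.3 in the lowest TEB library. The remaining members overlapped between basal duct and basal TEB, with log2 fold changes of 0.43 for Meg3, 0.48 for Igf2r, 0.55 for Ndn, -0.39 for H19 and -0.81 for Dlk1, and FDRs from 0.419 to 0.916.

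In luminal cells 1 of 10 members was called between TEB and duct, Meg3, which was lower in TEB, beside 0.771% of all genes called higher in luminal duct and 0.639% higher in luminal TEB. The log2 fold change of Meg3 was -3.88 (SE 0.83, FDR 0.0461), from 0.478 and 7.11 CPM in duct and 0.171 to 0.405 CPM in TEB. The call rested on luminal duct replicate 3: without it the log2 fold change was -0.91 (FDR 0.638). It was also lost when any of the 3 basal duct replicates, basal TEB replicate 2 or 3, or any luminal TEB replicate was left out (FDR 0.0503 to 0.154), and it held under 8 of 22 alternatives in all. Rian, the next non-coding RNA of the same cluster, had the same split, with 0.0228 CPM in luminal duct replicate 1 and 3.58 in replicate 3.

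In CPM, 3 of the 10 members did not overlap between luminal duct and luminal TEB, H19 and Igf2r being higher in TEB and Meg3 lower, beside 43.7% of all genes, since the duct group has 2 libraries. H19 had a log2 fold change of 1.48 (SE 1.06, FDR 0.50), which was 6.17 (FDR 0.0194) without luminal duct replicate 3, and it was called by limma voom (4.25, FDR 0.0379). Igf2r had 0.73 (SE 0.29, FDR 0.236), with 145 and 135 CPM in duct and 210 to 251 CPM in TEB, and its sign held under all 22 alternatives. Ndn had -3.21 (SE 1.22, FDR 0.215) on 22 counts in duct, all from replicate 1, and 4 in TEB. The values of Ndn, Cdkn1c (-0.96), Mest (0.35) and Plagl1 (-0.15) each changed sign when 1 of the 2 luminal duct libraries was left out, and those of Grb10 (-0.38) and Peg3 (0.58) had FDRs of 0.801 and 0.505. The median of the 10 was -0.08, beside 0.04 over all genes.

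The test of the difference itself, the TEB change in basal minus that in luminal cells, called 0 of 10 members, beside 0.443% of all genes. At an unadjusted p under 0.05 there were 3 (Meg3, Ndn and Peg3), beside 2559 of the 17370 genes tested. The likelihood ratio test and DESeq2 each called Meg3, and limma voom called 0. The largest values were 4.31 for Meg3 (SE 1.07, FDR 0.115), 3.76 for Ndn (SE 1.47, FDR 0.267), 2.31 for Cdkn1c (SE 1.10, FDR 0.353) and -2.27 for Plagl1 (SE 1.17, FDR 0.388). Without luminal duct replicate 1 the call was made for Meg3, Cdkn1c and Plagl1 (FDR 0.00231, 0.0257 and 0.0355), and without replicate 3 for H19 (FDR 0.0302). Each of these rests on a single remaining luminal duct library, whose spread is assumed to be that of the other groups.

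**Figure D3:**
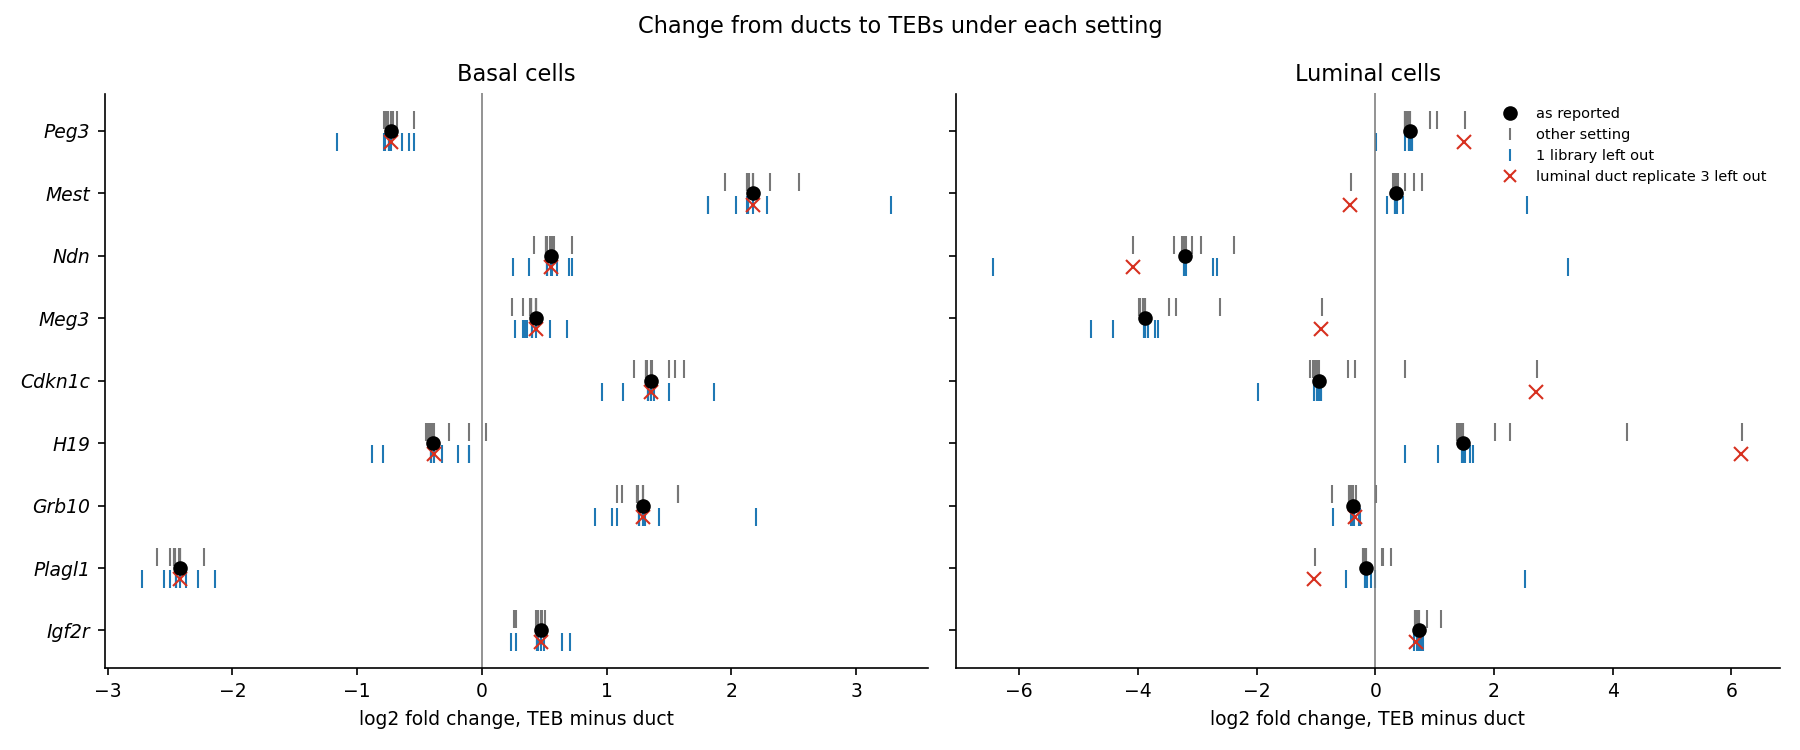
Log2 fold change of TEB against duct (horizontal axis) for 9 members in basal cells at left and luminal cells at right; the black point is the value as reported, grey ticks other settings, blue ticks fits with 1 library left out, and red crosses the fit without luminal duct replicate 3. In basal cells each member but H19 stays on one side of 0, whereas in luminal cells Meg3 moves to -0.91, Cdkn1c to 2.71 and H19 to 6.17 without that library.

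Most of the members lie in clusters, and 9 of the 10 have at least 1 other gene of the fixed imprinted lists within 1500 kb. On chromosome 12, Rian lies 32.2 kb from Meg3 and Dlk1 77.7 kb on the other side. Rian, a maternally expressed host of small nucleolar RNAs, had 3.63 to 4.91 RPKM in basal duct and 4.22 to 7.46 in basal TEB. It had 0.00635 and 0.998 RPKM in luminal duct replicates 1 and 3, and 0.113 to 0.231 in luminal TEB. Its log2 fold change between layers in TEBs was 5.25 (SE 1.10, FDR 0.00399). In ducts it was 3.15 (SE 1.18, FDR 0.0792), which missed the threshold. Meg3 had 1.63 to 2.63 RPKM in basal duct and 2.04 to 3.10 in basal TEB. Mirg, a maternally expressed RNA 163 kb from Meg3, did not share this pattern. It had 0.345 to 3.06 RPKM in basal TEB and 0.638 to 1.17 in luminal TEB. Between layers its log2 fold change was -0.83 (SE 1.80, FDR 0.785) in ducts and 0.60 (SE 1.64, FDR 0.833) in TEBs. The paternally expressed genes of the cluster were at most 0.0747 RPKM for Dlk1, 0.288 for Dio3 and 0.0147 for Rtl1 in any library. At this locus the maternally expressed RNAs were above the paternally expressed genes in every basal library.

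On the distal part of chromosome 7, Igf2, the fetal growth factor that shares enhancers with H19, lies 72.6 kb from it. Igf2 had 0.188 to 0.634 RPKM in basal duct, at most 0.144 in basal TEB, 0 and 1.26 in luminal duct replicates 1 and 3, and at most 0.396 in luminal TEB, where H19 had 31.6 to 65.2 RPKM. No Igf2 comparison passed the threshold (FDR 0.62 to 0.955), and 4 of 11 libraries had 0 counts. Cdkn1c lies 880 kb from H19 in a neighbouring domain. Its nearest listed neighbour, the transporter gene Slc22a18 at 12.7 kb, had the reverse pattern, with at most 0.63 RPKM in basal libraries and 8.22 to 18 in luminal ones, and log2 fold changes of -5.92 (SE 1.33, FDR 0.00707) in ducts and -9.90 (SE 1.68, FDR 0.000892) in TEBs. Kcnq1ot1, the paternally expressed non-coding RNA that silences this domain in cis, was higher in basal cells of TEBs (log2 fold change 1.66, SE 0.55, FDR 0.0452), although its libraries overlapped, at 16.8 to 62.0 CPM in basal and 8.94 to 20.4 CPM in luminal TEB, and the call was lost without basal duct replicate 3, basal TEB replicate 1 or 3, either luminal duct library or luminal TEB replicate 2 or 3 (FDR 0.053 to 0.162). Nap1l4 in the same domain, at 38.2 to 71.0 RPKM, was not called in any of the 4 pairwise comparisons.

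**Figure D4:**
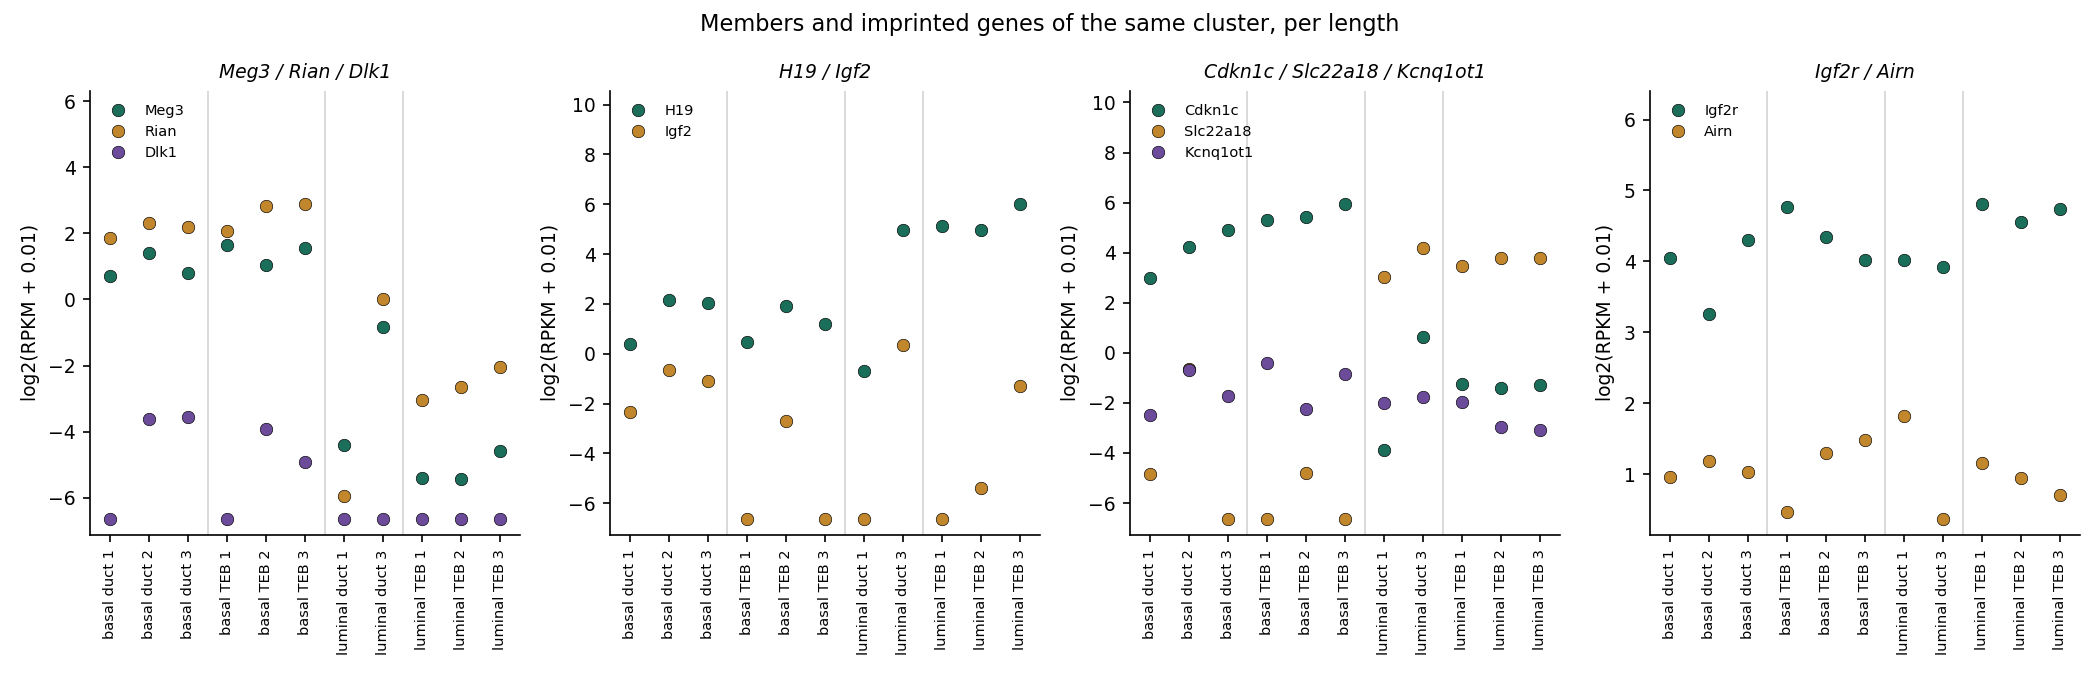
Log2(RPKM + 0.01) of members and neighbouring imprinted genes in each of the 11 libraries, with grey lines between groups; points at the bottom of the first 3 panels have 0 counts. Rian, like Meg3, is higher in each basal than in each luminal library, although between layers it was called in TEBs and not in ducts. Igf2 is below H19 in every library, Slc22a18 is high where Cdkn1c is low, and Airn is below Igf2r throughout. Mirg, of the same cluster as Meg3, is not drawn and was not called between layers.

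Among the other imprinted genes, 48 were listed from general knowledge and 38 passed the filter. In ducts 3 of the 38 were called higher in basal cells (Nnat, Peg13, Atp10a), beside 12.6% of all genes tested. There 5 were higher in luminal cells (Rasgrf1, Gatm, Slc22a18, Ppp1r9a, Cobl), beside 9.71% of all genes. In TEBs 7 of the 38 were higher in basal cells (Slc38a4, Rian, Nnat, Peg13, Kcnq1ot1, Impact, Gnas), beside 13.2% of all genes. There 5 were higher in luminal cells (Slc22a18, Rasgrf1, Ppp1r9a, Cobl, Atp10a), beside 11.8% of all genes. The median absolute log2 fold change of the 38 was 1.66 in ducts and 1.77 in TEBs, beside 0.92 and 0.87 over all genes. In TEBs the signed median was 1.36 for the 20 paternally expressed genes tested and -0.34 for the 18 maternally expressed ones. With both directions present, the signed median of the 38 was 0.01 in ducts and 0.17 in TEBs, so unlike that of the members it lay near 0. Members and lists were chosen with earlier results of these data known, so this contrast is a description and not independent support for a family trait. Of the other imprinted genes called, Gatm, Slc22a18, Rasgrf1, Slc38a4, Rian and Gnas fall outside the rule for naming and were named after their values were seen.

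Nnat, which encodes the membrane proteolipid neuronatin and is paternally expressed, was higher in basal cells in both places, at 23.8 to 46.2 CPM in basal and 2.22 to 5.22 CPM in luminal libraries, with log2 fold changes of 3.67 (SE 0.42, FDR 6.54e-05) in ducts and 3.01 (SE 0.34, FDR 4.39e-05) in TEBs. Rasgrf1, a paternally expressed exchange factor for Ras, was at most 0.847 CPM in basal libraries, 268 and 204 CPM in luminal duct and 50.4 to 106 CPM in luminal TEB. Slc38a4, a paternally expressed amino acid transporter, had 20.8 to 35.0 CPM in basal TEB, 8.96 to 13.9 in basal duct and 2.51 CPM at most in luminal cells, in luminal duct replicate 3. Cobl, an actin nucleator that lies 199 kb from Grb10, was lower in basal cells in ducts (log2 fold change -1.55) and in TEBs (-1.98), where Grb10 itself was not called.

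Between TEBs and ducts, 0 of the 38 was called in basal cells, and DESeq2 called 2. At an unadjusted p under 0.05 there were 5 in basal cells, beside 2511 of the 17370 genes tested. In luminal cells, beside 0.639% of all genes called higher in TEB and 0.771% higher in duct, 1 was called, the phospholipid flippase gene Atp10a. It had 3.12 and 0.822 CPM in luminal duct and 23.2, 24.9 and 26.6 CPM in luminal TEB, a log2 fold change of 3.64 (SE 0.70, FDR 0.0296). The FDR stayed below the threshold under 16 of 22 alternatives, and 0 of these genes was called without luminal duct replicate 3, basal duct replicate 1 or any of the luminal TEB replicates. Of 9 factors that maintain imprints, 8 were tested. Trim28, the corepressor that holds methylation at imprinted control regions, was higher in basal cells in ducts (log2 fold change 0.87, FDR 0.0031) and TEBs (0.62, FDR 0.00911), and Zfp57, the zinc finger protein that recruits it, in TEBs (5.38, FDR 0.0164, at 8.88 to 15.9 CPM against 0.0193 to 0.65 in luminal TEB). Without composition normalization Trim28 was not called (FDR 0.0627 in ducts and 0.637 in TEBs), and Zfp57 was not called without luminal TEB replicate 2 or 3 (FDR 0.0668 and 0.0526). Of the 8, 0 was called between TEBs and ducts in either layer. At an unadjusted p under 0.05 there were 3 in basal and 4 in luminal cells, beside 2511 and 2882 of the 17370 genes tested.

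The genes whose log2 CPM followed each member most closely over the 11 libraries are given as a description only. The libraries fall into 2 cell layers, and the part of the layers in these correlations was not tested. Peg3 was closest to Ptpn14 (Pearson r = 0.991), Flna (0.989) and Adgra3 (0.988), and Mest to Csrp2 (0.975), Bex2 (0.973) and Cxxc5 (0.971). Cdkn1c was closest to Slc20a2 (0.988), Igfbp4 (0.985) and Nrep (0.985), and Meg3 to Gm3373 (0.986), Apobec1 (0.985) and Inpp4a (0.985). The members without a clear difference between layers were Grb10, closest to Txnl4a (0.837), Zfp808 (0.831) and Gm16973 (0.827), Plagl1, closest to Esyt2 (0.945), Rabac1 (0.940) and Cxcl1 (0.927), and Igf2r, closest to Nr2c2 (0.957), Ddx56 (0.955) and Abhd2 (0.955). H19 was closest to Oas1a (0.907), Igtp (0.905) and Brwd3 (0.900). Ndn and Dlk1 were below the level set for this description.

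**Figure D5:**
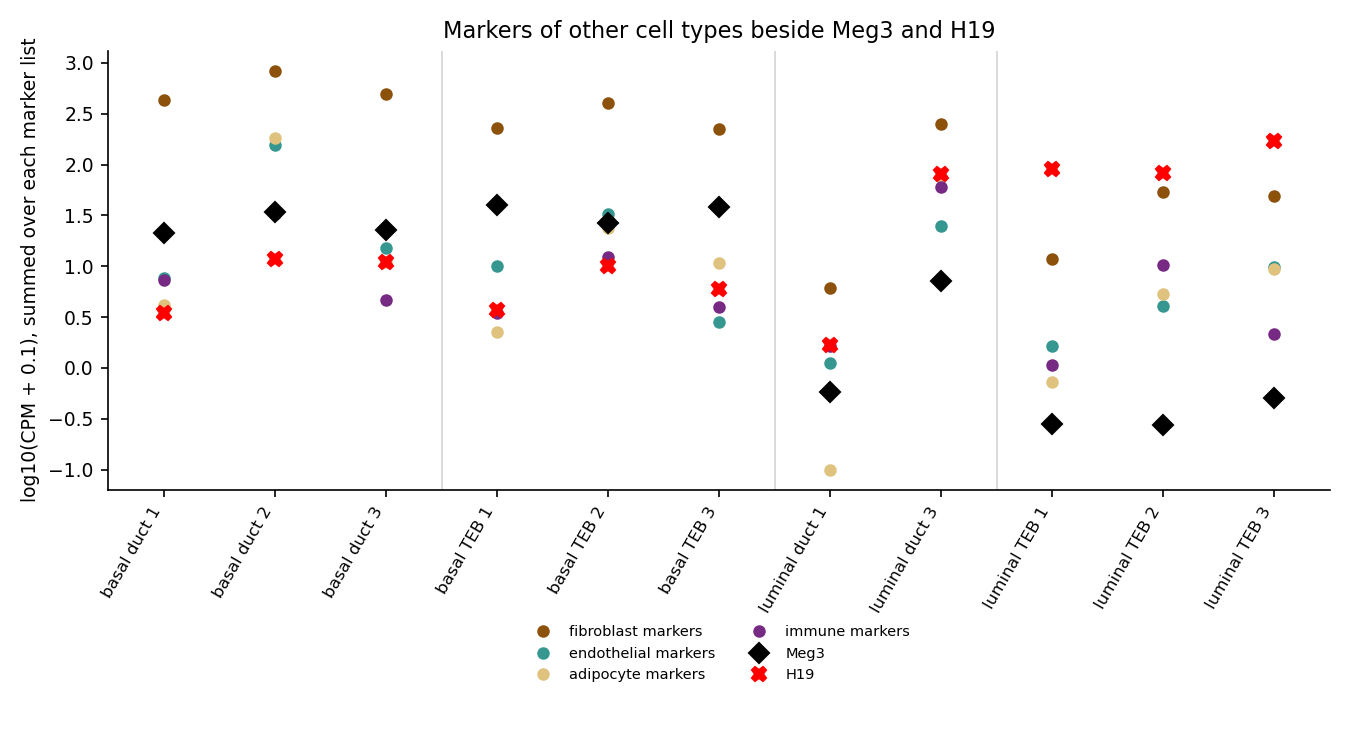
Log10(CPM + 0.1) of Meg3 and H19 and of the summed markers of 4 other cell types in each library, with grey lines between groups. Luminal duct replicate 3 is above replicate 1 for all 4 marker lists, for Meg3 (7.11 against 0.478 CPM) and for H19 (81.1 against 1.59 CPM), and fibroblast markers are at 226 to 840 CPM in the basal libraries.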

How the data were processed

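Bulk RNA-seq libraries of sorted mammary cells (11 in 4 groups) were analysed from read counts per Entrez gene. Per the labels and the study's methods, the authors used Rsubread for alignment to mm10 and featureCounts with the inbuilt RefSeq annotation for counting, and the deposited counts are whole numbers without normalization. The table of the series equalled the 11 single tables. Symbols were found for 25275 of 27179 identifiers. Genes were filtered with filterByExpr (minimum count 10, total 15), scaled by TMM and tested with the quasi-likelihood F-test of edgeR 4.0.16 (R 4.3.3) in 1 model of 4 groups, with Benjamini-Hochberg adjustment; the study's methods name glmFit. Standard errors are the absolute log2 fold change over the square root of F, and RPKM is CPM per kilobase of counted exon. Replicates are pools of mice, and intervals or limits cover counting error only.

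Members and lists were chosen with earlier results of these data known. Named from the lists were genes past the threshold in TEB against duct, the 4 largest changes in each direction between layers at a mean log2 CPM of at least 2, Igf2, and the 3 genes most correlated with each member at that level (prior count 2). Alternatives were DESeq2 1.42.0 size factors or none, other filters, the likelihood ratio test, DESeq2, limma 3.58.1 voom, the compared groups alone, a replicate block, mitochondrial genes removed, and libraries left out singly or as a pair. The fit was run on simulated counts with known changes in basal TEB against basal duct only. Their spread was set below the common value of these data. This run therefore does not cover the luminal duct group or changes in genes at low counts.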

Additional observations from a re-analysis of the deposited data

How the results depend on the processing

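Of the 671 fits of a gene's value with 1 library left out, 613 kept direction and side of the threshold, 42 lost and 7 gained the call and 9 changed sign; under the other settings these numbers were 616, 22, 15 and 14 of 667. Members called between basal and luminal cells of TEBs numbered 6 or 7 throughout, and those in ducts 3 to 7, with 3 in a fit of the duct groups alone. Between basal TEB and duct, where 0 was called, the likelihood ratio test gave 1, DESeq2 2, limma voom 2 and fits without 1 library 0 to 1. Between luminal TEB and duct, where 1 was called, no composition normalization, the groups alone and the replicate block gave 0, the likelihood ratio test and DESeq2 2, and fits without 1 library 0 to 1. For the difference between layers in the TEB change, where 0 was called, the likelihood ratio test and DESeq2 gave 1, omission of luminal duct replicate 3 and basal TEB replicate 1 as a pair 1, and fits without 1 library 0 to 3.

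For the other imprinted genes, DESeq2 called 2 and the paired omission 1 in basal TEB against duct (0 as reported). In luminal cells (1 as reported) 2 were called with DESeq2 size factors, without a filter, with a filter at a mean CPM of 1, with limma voom and with the paired omission, 4 with the likelihood ratio test and DESeq2, 0 without composition normalization, and 0 to 4 without 1 library. In ducts (8 as reported) there were 15 with the likelihood ratio test, 13 with DESeq2 and with the paired omission, and 5 with the groups alone. For the difference in TEB change (0 as reported) there were 2 without a filter, with the likelihood ratio test and DESeq2, 1 with the paired omission, and 0 to 3 without 1 library.

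Signs changed for values near 0 or set by luminal duct. H19 in basal TEB against duct became 0.034 with limma voom, and in ducts 0.26 with limma voom, 2.43 with the paired omission, and -3.23 to 2.43 without 1 library. Dlk1 in basal TEB against duct became 0.015 with limma voom. In luminal TEB against duct, Plagl1 became 0.12 without composition normalization, 0.27 with limma voom, 0.14 with the replicate block and -1.03 to 2.51 without 1 library; Mest -0.41 with the paired omission and -0.43 to 2.56 without 1 library; Grb10 0.016 without composition normalization; Cdkn1c 0.50 with limma voom, 2.73 with the paired omission and -1.98 to 2.71 without 1 library; and Ndn -6.43 to 3.25 without 1 library. In ducts between layers, Grb10 became 0.0076 and Igf2r 0.091 without composition normalization, Igf2r 0.057 with the replicate block, and without 1 library Grb10 ran from -0.98 to 0.28 and Igf2r from -0.27 to 0.21. The cause was not tested.

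Replicate numbers were not used to pair the samples. Deviations of same-numbered libraries correlated at -0.07 to 0.16 (median 0.07) over 15 pairs, and 4 pairs exceeded 0.1. Libraries with other numbers correlated at -0.16 to 0.14 (median -0.03) over 30 pairs, and 2 pairs exceeded 0.1. A weak pairing was therefore not excluded. With the replicate block 0, 0, 5, 7 and 0 members were called in the 5 comparisons in the order of the report's tests (basal TEB against duct, luminal TEB against duct, layers in ducts, layers in TEBs, and the difference). Without composition normalization the median over all genes of the log2 fold change moved from -0.03 to -0.16 in basal TEB against duct, from 0.04 to 0.42 in luminal, from 0.08 to 0.19 between layers in ducts, from 0.04 to -0.35 in TEBs and from -0.13 to -0.63 for the difference. Luminal duct has 2 libraries, Dlk1 and Ndn few luminal counts, and alleles are not separated.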
